A study of Mus musculus with 6 samples.

Results

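DNA methylation places a methyl group on cytosine, mostly where cytosine is followed by guanine (a CpG), and it is copied to the new strand each time DNA is replicated. Dnmt1, guided by Uhrf1, does the copying and is made mainly by dividing cells, while Dnmt3a and Dnmt3b set new marks. Tet1, Tet2 and Tet3 oxidise the methyl group, Tdg cuts the oxidised base out for repair, and Mbd2 is a protein that binds methylated DNA and recruits repressor complexes. In blood and vascular cells Tet2 and Dnmt3a are among the best studied of these enzymes.

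The genes described here are these 9, read through every probe set of the array whose annotation names one of them alone. Of the 18193 genes named on the array, 8 of the 9 had such probe sets, 21 in all. The 3 probe sets that carry Tdg also carry the pseudogenes Tdg-ps and Tdg-ps2, so no level is given for Tdg. The gene set was proposed because Tet2 had one of the smallest p-values in the comparison of transgenic with non-transgenic cultures on these same arrays, so differences of the 9 genes in that comparison are given as descriptions, with an error and without a test.

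The arrays were 6 Affymetrix GeneChip mouse arrays of cultured primary aortic endothelial cells of strain C57 mice, without further treatment. In the transgenic group (3 arrays) the mice carried human PPARG with the dominant negative V290M change under the promoter of CDH5, an endothelial cadherin gene. In the non-transgenic group (3 arrays) they did not. Cells came from 10 mice per group, grown as 5 cultures of 2 mice each, of which 3 per group were arrayed, so the replicates are separate cultures of pooled animals, and precision is limited by having 3 arrays per group. PPARG is a nuclear receptor for fatty acids that activates lipid genes, and the V290M form interferes with the normal receptor.

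Several facts of the arrays bear on the results. The labelled cell type was weakly marked: 7 of 20 endothelial markers had a mean above the level filter (a signal of 194, the median of all probe sets). Cdh5, Pecam1 and Nos3 did not, whereas 15 of 15 fibroblast and 9 of 12 smooth muscle markers did. So did 7 of 10 adipocyte and 5 of 18 leukocyte and macrophage markers. Transgenic replicate 3 resembled the non-transgenic cultures more than its own group, with a mean rank correlation over genes of 0.972 with the non-transgenic arrays and 0.907 with the other transgenic ones. The differences of the genes above the filter and the list medians are therefore also given without it. That array was picked on these same values, so leaving it out favours larger group differences. The summed signal of 18 leukocyte and macrophage markers was 12033, 22725 and 5763 in transgenic replicates 1, 2 and 3, against 4134 to 5662 in the non-transgenic cultures, with the defining markers Ptprc and Spi1 below the level filter in both groups. Only 5 of the 18 were tested, 3 with a positive and 2 with a negative difference. The median difference of these 5 was 1.15, or 1.64 without transgenic replicate 3 and 0.36 without replicate 2. With no level filter the list's median was 0.18. The summed signal of 10 adipocyte markers was 38674, 21501 and 33785 in transgenic replicates 1, 2 and 3, against 40019 to 75920 in the non-transgenic cultures. Of these markers 7 were tested, 6 of them with a negative difference. Their median difference was -1.81 (0.81 adjusted for the Gapdh ratio and -0.74 for that of beta-actin, both described next). Control probe sets at both ends of Gapdh gave a 3′ over 5′ ratio, which is lower where more 5′ sequence is recovered. It was 1.33 ± 0.12 (SD, n = 3) in transgenic and 1.59 ± 0.11 (SD, n = 3) in non-transgenic cultures. The two-sided exact permutation p was 0.1, the smallest that 3 against 3 allows. For beta-actin the ratio was 1.78 ± 0.41 in transgenic and 2.00 ± 0.17 in non-transgenic cultures (SD, n = 3, permutation p = 0.5). The Gapdh ratio was lower in every transgenic culture than in any non-transgenic one. Ratio and group thus cannot be told apart, and values adjusted for Gapdh are no correction.

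Promoter windows of 3 of the genes are shown as sequence alone, and no level below depends on them. The genes are Tet2, which lay lower in all transgenic cultures, and Dnmt1 and Uhrf1, which lay higher in transgenic replicates 1 and 2. Each window of 300 bases, from RefSeq with build GRCm38.p6, runs from 250 bases before a transcription start to 50 after it, written 5′ to 3′ on the gene's strand. In the Tet2 window (chr3:133544341-133544640, minus strand) capitals mark CpG. In the Dnmt1 window (chr9:20952574-20952873, minus strand) and the Uhrf1 window (chr17:56304063-56304362, plus strand) capitals mark a match to the E2F motif.
Tet2: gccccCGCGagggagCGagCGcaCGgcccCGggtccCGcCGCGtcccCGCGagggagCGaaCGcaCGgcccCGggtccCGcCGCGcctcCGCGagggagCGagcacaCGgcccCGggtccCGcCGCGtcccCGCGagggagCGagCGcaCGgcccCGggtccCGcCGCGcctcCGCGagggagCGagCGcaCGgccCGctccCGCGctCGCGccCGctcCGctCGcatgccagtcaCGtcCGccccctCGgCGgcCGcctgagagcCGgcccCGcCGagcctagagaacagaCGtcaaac
Dnmt1: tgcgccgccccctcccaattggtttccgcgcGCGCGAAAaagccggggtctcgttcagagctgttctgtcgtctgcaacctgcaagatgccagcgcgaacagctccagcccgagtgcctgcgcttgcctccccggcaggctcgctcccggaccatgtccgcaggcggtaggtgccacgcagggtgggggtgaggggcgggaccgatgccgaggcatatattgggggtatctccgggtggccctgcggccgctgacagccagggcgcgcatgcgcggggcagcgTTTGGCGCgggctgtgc
Uhrf1: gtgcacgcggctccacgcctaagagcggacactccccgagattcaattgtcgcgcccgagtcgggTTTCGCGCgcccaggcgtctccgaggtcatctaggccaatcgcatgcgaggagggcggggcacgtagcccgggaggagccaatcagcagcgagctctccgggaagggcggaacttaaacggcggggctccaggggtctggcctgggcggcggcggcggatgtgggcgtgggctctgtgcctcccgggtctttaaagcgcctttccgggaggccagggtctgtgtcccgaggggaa

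E2F factors drive genes of the S phase of the cell cycle, and the motif was searched on both strands as TTTCCCGC, TTTCGCGC, TTTGCCGC or TTTGGCGC. Across all mouse promoter windows 744 of 32851 (2.26%) held a match. Among the 13 windows of 8 of the 9 genes, 1 of 3 for Dnmt1 and 1 of 2 for Uhrf1 held it, and these are the ones shown. The other 11, including all windows of the Tet genes, Dnmt3a and Dnmt3b, did not. The Dnmt1 matches began 219 bases before and 33 bases after the annotated start, and the Uhrf1 match began 185 bases before it. Of the S phase genes listed below, 9 of 25 with a window had a match in at least 1 window, against 704 of all 27025 genes with a window. The Tet2 window held 57 CpG, the most among the 13 windows, which ranged from 2 to 57, against a median of 7 over all windows. The DR1 motif AGGTCANAGGTCA, the site type bound by PPARG with its partner RXR, was in 13 of all windows (0.04%) and in none of these 13. A match or its absence in these letters is a description of the sequence and says nothing of a factor's binding.

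Tet2, the dioxygenase that oxidises methylated cytosine and is best known in blood cells, lay lower in all 3 transgenic cultures on both of its probe sets. The brighter probe set, 1455300_at, had a signal (the MAS5 summary of a probe set's brightness) of 1297.6, 1472.7 and 2060.0 in transgenic replicates 1, 2 and 3. It had 3027.1, 3987.4 and 3573.4 in non-transgenic replicates 1, 2 and 3. The groups did not overlap, and transgenic replicate 3 lay between the other transgenic cultures and the non-transgenic ones. The difference was -1.14 ± 0.23 (SE, n = 3 per group) on the log2(signal + 16) scale, on which all differences here are given as transgenic minus non-transgenic, and it corresponds to 2.21-fold lower in transgenic cultures.

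The second Tet2 probe set, 1438781_at, gave signals of 311.2, 273.9 and 271.7 in transgenic cultures. Its signals were 713.8, 972.2 and 917.3 in non-transgenic cultures. Here transgenic replicate 3 was as low as the other transgenic cultures, and the difference was -1.54 ± 0.26 (SE, n = 3 per group), or 2.91-fold lower. Relative to the non-transgenic mean, transgenic replicates 1, 2 and 3 lay at -1.42, -1.24 and -0.76 on the brighter probe set and at -1.42, -1.60 and -1.61 on the dimmer one. Without transgenic replicate 3 the difference of the brighter probe set was -1.33. Adjusted for the Gapdh ratio it was -1.03, and for that of beta-actin -1.04. The summed leukocyte marker signal given above was higher in each transgenic culture than in any non-transgenic one, narrowly in replicate 3 (5763 against 5662). The summed adipocyte marker signal was lower in each transgenic culture than in any non-transgenic one. The part of either marker set in the Tet2 and Tet3 differences was not tested. In cultures of mixed cells, fewer cells of a type and less RNA per cell cannot be told apart.

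Tet3, the dioxygenase known from the zygote and from neurons, was read by 1 dim probe set and also had groups that did not overlap. Its signal was 183.9, 173.7 and 208.8 in transgenic cultures. It was 467.6, 400.2 and 244.6 in non-transgenic cultures, so that non-transgenic replicate 3 lay nearest to the transgenic values. The transgenic signals lay near the level filter of 194. The difference was -0.87 ± 0.33 (SE, n = 3 per group) and -0.94 without transgenic replicate 3. Adjusted for the Gapdh ratio it was -0.37, and for that of beta-actin -0.73.

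Tet1, the family member typical of embryonic stem cells, gave no level that could be compared. On its 4 probe sets the signal ran from 7.7 to 148.6 over the 6 arrays, below the filter on every array, and 2 probe sets had a positive and 2 a negative difference. No fold is given for it. Of the Tet family, Tet2 and Tet3 thus passed the level filter and Tet1 did not.

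**Figure D1:**
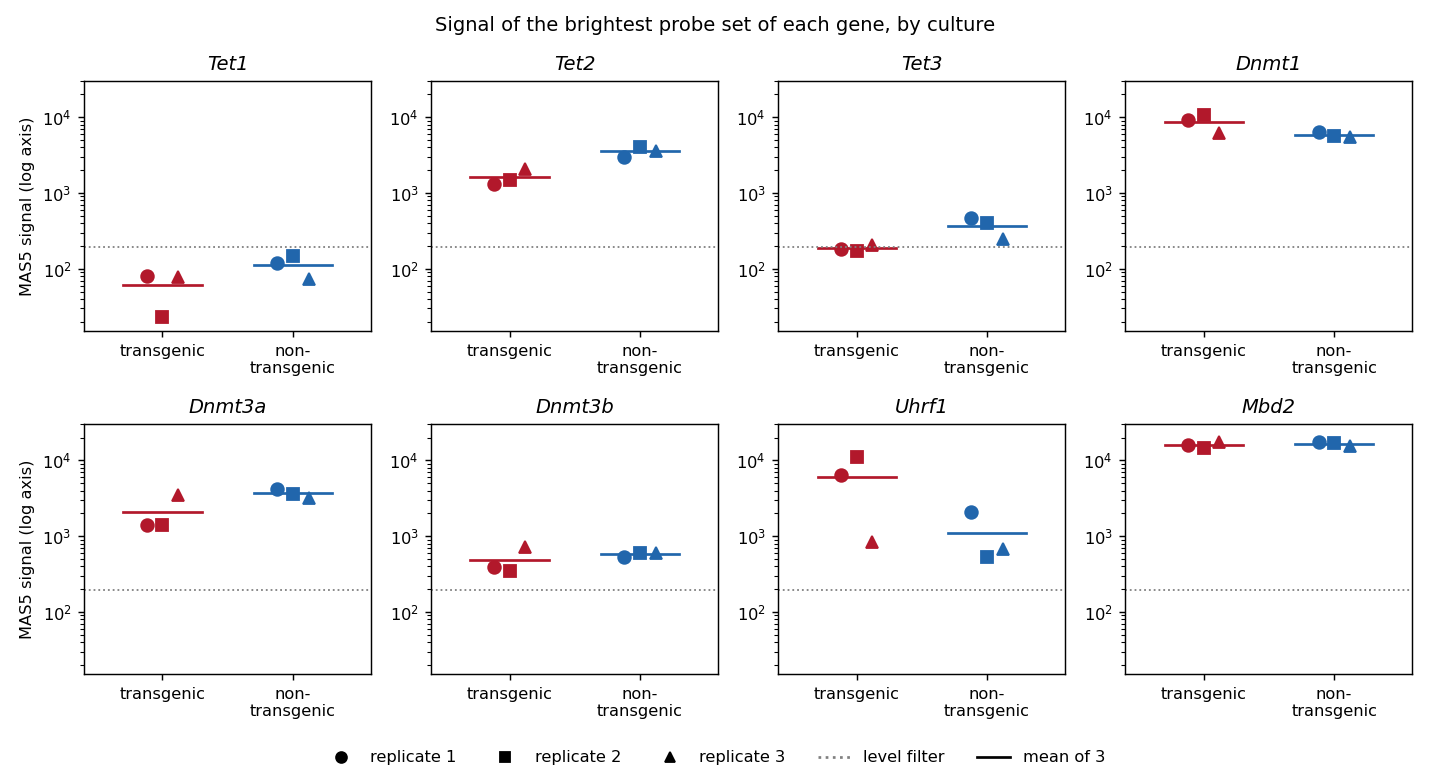
MAS5 signal (log axis) of the brightest probe set of each of the 8 genes in the 3 transgenic (red) and 3 non-transgenic (blue) cultures, with symbols for replicates, a line for the mean of 3 and a dotted line at the level filter of 194. All transgenic cultures lie below all non-transgenic ones for Tet2 and Tet3, and transgenic replicate 3 lies near the non-transgenic cultures for Dnmt1, Dnmt3a and Uhrf1.

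Among the maintenance genes, Dnmt1 and Uhrf1 lay higher in transgenic replicates 1 and 2, while replicate 3 lay among the non-transgenic cultures. Uhrf1, the protein that binds half-methylated DNA behind the replication fork, had a signal of 6493.7, 10995.2 and 841.1 in transgenic cultures on probe set 1415810_at. It had 2068.8, 530.5 and 672.4 in non-transgenic cultures. The groups overlapped through transgenic replicate 3 and non-transgenic replicate 1. The difference was 2.10 ± 0.90 (SE, n = 3 per group). Leaving out transgenic replicate 3 gave 3.20, leaving out replicate 2 gave 1.36, and 0.75 adjusted for the Gapdh ratio or 1.31 adjusted for that of beta-actin.

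The dimmer Uhrf1 probe set, 1415811_at, had a mean below the level filter, with signals of 486.9, 873.0 and 8.4 in transgenic cultures, against 71.2 to 172.8 in non-transgenic ones. Here too transgenic replicates 1 and 2 were the highest, while replicate 3 was the lowest of all 6. The difference on this probe set, 0.83 ± 1.17 (SE, n = 3 per group), was smaller than its error. Dnmt1, the maintenance methyltransferase, had a signal of 9072.9, 10683.9 and 6259.7 in transgenic cultures on its brightest probe set, 1435122_x_at. It had 6387.2, 5578.6 and 5534.5 in non-transgenic cultures. Transgenic replicates 1 and 2 lay above every non-transgenic culture and replicate 3 lay just below non-transgenic replicate 1. The difference was 0.54 ± 0.21 (SE, n = 3 per group) and 0.76 without transgenic replicate 3. Adjusted for the Gapdh ratio it was 0.17, and for that of beta-actin 0.36. The other 2 Dnmt1 probe sets differed by 0.51 ± 0.30 and 0.61 ± 0.25, so that all 3 had the same direction.

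S phase genes, the helicases, polymerases and nucleotide-making enzymes of DNA replication, were set beside these genes culture by culture. The median over the 27 tested genes of that list, relative to the non-transgenic mean, was 0.97, 1.46 and 0.07 in transgenic replicates 1, 2 and 3. It was 0.12, -0.09 and -0.03 in the non-transgenic cultures. On the same scale Uhrf1 lay at 2.82, 3.58 and -0.11 and Dnmt1 at 0.64, 0.87 and 0.10 in transgenic replicates 1, 2 and 3. In all of these, replicate 2 was the highest and replicate 3 lay near 0. The part of cell division in the Uhrf1 and Dnmt1 differences was not tested.

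**Figure D2:**
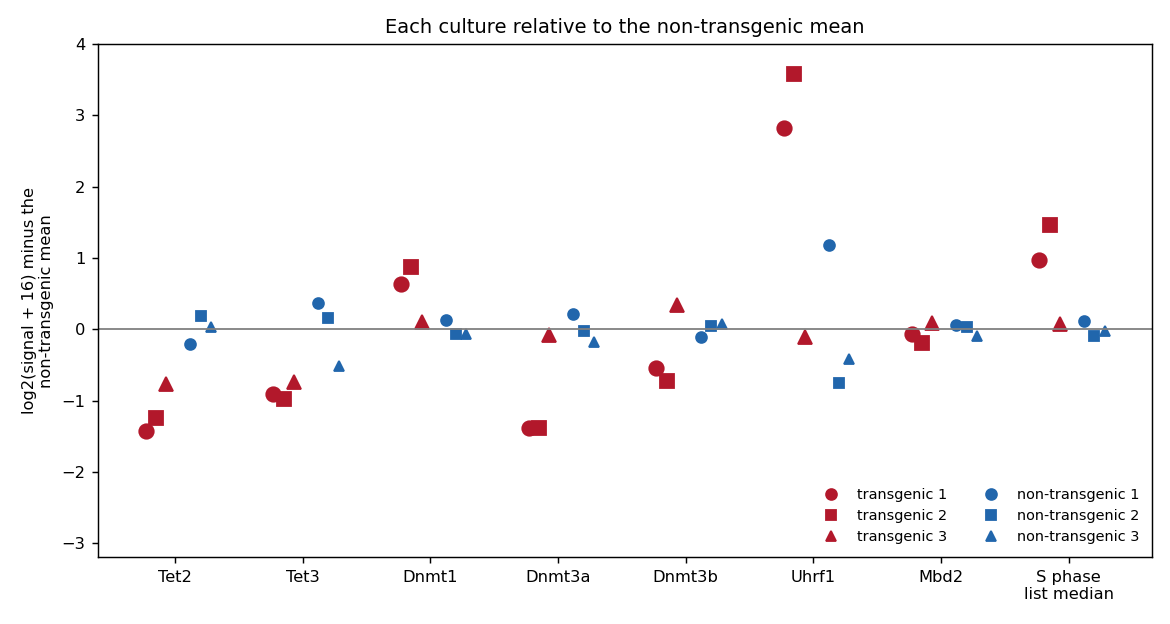
Level of each culture, as log2(signal + 16) minus the non-transgenic mean, for the 7 genes above the level filter and for the median of 27 S phase genes, with transgenic cultures in red to the left and non-transgenic cultures in blue. Transgenic replicate 3 lies at -0.76 for Tet2 and -0.74 for Tet3, against 0.10 for Dnmt1, -0.08 for Dnmt3a and -0.11 for Uhrf1.

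Of the methyltransferases that set new marks, Dnmt3a lay lower in transgenic replicates 1 and 2 on 4 of its 5 probe sets and higher on the other. On the brightest, 1423063_at, the signal was 1387.0, 1386.9 and 3449.5 in transgenic cultures. It was 4200.1, 3579.7 and 3200.2 in non-transgenic cultures. Transgenic replicate 3 was between non-transgenic replicates 2 and 3, and the difference was -0.95 ± 0.35 (SE, n = 3 per group). It was -1.38 without transgenic replicate 3, -0.58 adjusted for the beta-actin ratio and -0.02 adjusted for the Gapdh ratio.

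The remaining Dnmt3a probe sets did not run together. Probe set 1423065_at had signals of 218.1, 420.0 and 582.7 in transgenic cultures and of 913.0, 911.0 and 924.6 in non-transgenic ones, a difference of -1.24 ± 0.36 (SE, n = 3 per group) with no overlap. Probe set 1423066_at also had groups that did not overlap, at -0.85 ± 0.34, and 1460324_at had groups that did, at -0.88 ± 0.44. Probe set 1423064_at went the other way, with 1088.3, 1194.4 and 992.5 in transgenic and 981.4, 720.5 and 875.4 in non-transgenic cultures, a difference of 0.35 ± 0.23 with no overlap. All 5 carry the same annotation, and which Dnmt3a transcripts each reads is not stated by the annotation. RefSeq lists 3 start windows for Dnmt3a.

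Dnmt3b, the methyltransferase of early development and of repeats near centromeres, was dim. Its brighter probe set, 1449052_a_at, had signals of 386.8, 342.3 and 728.6 in transgenic and 529.1, 593.3 and 602.4 in non-transgenic cultures. Transgenic replicates 1 and 2 were the lowest and replicate 3 the highest of all 6, so the difference of -0.31 ± 0.33 (SE, n = 3 per group) was no larger than its error. It was -0.64 without transgenic replicate 3, -0.19 without replicate 1 and -0.11 without replicate 2. Adjusted for the Gapdh ratio it was 0.23, and for that of beta-actin -0.06. The other Dnmt3b probe set, below the level filter on average, differed by -0.91 ± 0.39.

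Mbd2, the methyl-CpG binding protein, was bright and close to level. Its signal on 1417165_at was 15930.2, 14571.9 and 17647.2 in transgenic cultures and 17407.4, 16984.9 and 15564.5 in non-transgenic cultures. The groups overlapped, and the difference was -0.06 ± 0.12 (SE, n = 3 per group), against 0.21 with each array centred on its median and -0.13 without transgenic replicate 3. The second probe set differed by 0.05 ± 0.22.

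**Figure D3:**
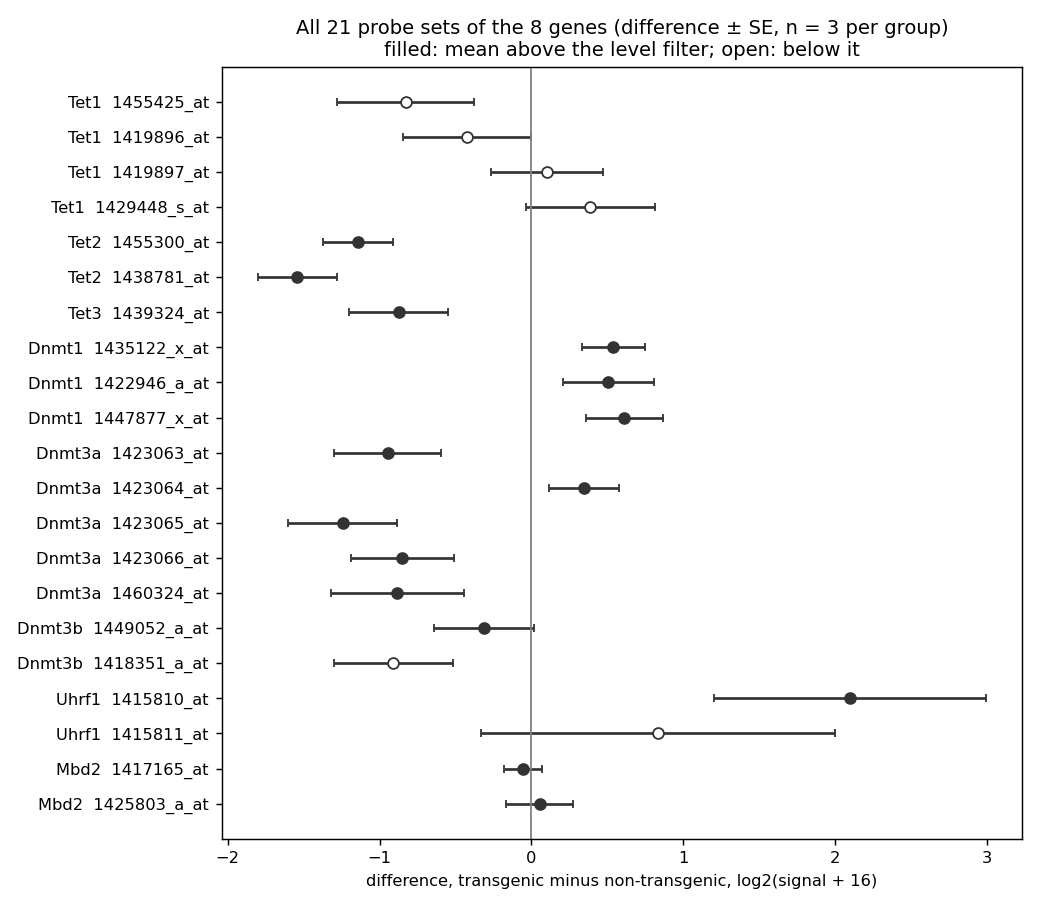
Difference between transgenic and non-transgenic cultures in log2(signal + 16) for each of the 21 probe sets, as points with SE bars (n = 3 per group), filled where the mean passed the level filter and open where it did not. Both Tet2 probe sets lie below 0, all 3 of Dnmt1 lie above 0, and 4 of 5 of Dnmt3a lie below 0.

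Across all genes, limma called 0 of 11208 (0%) at a Benjamini-Hochberg adjusted p of 0.05, with 1288 at an unadjusted p under 0.05. Of the 9 genes, 7 passed the level filter on their mean. For 2 of these 7, Tet2 and Tet3, the groups did not overlap with transgenic cultures lower, as was the case for 6.72% of all tested genes. For 0 of the 7 were the transgenic cultures all higher, against 9.39% of all tested genes. By probe set, 5 of the 15 above the filter did not overlap with transgenic lower and 1 with transgenic higher, against 9.79% and 8.8% of all 19750 probe sets tested. Since the comparison itself was used to propose the genes, nothing is read from these counts. Without transgenic replicate 3, limma called 1649 of 11208 genes (14.7%). The groups of 2 of the 7 genes then did not overlap with transgenic higher (22.8% of all genes) and those of 4 with transgenic lower (27.4%). That array was picked on these same values for its likeness to the other group, which favours more calls. Nothing is read from the counts without it.

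Other genes of the pathway were taken from lists chosen by function. Groups did not overlap with transgenic higher in 0, 0, 1 and 2 of the tested reader, partner, demethylation and methyl donor genes. With transgenic lower the counts were 0, 2, 2 and 1, against 9.39% of all tested genes higher and 6.72% lower. Nothing is read from these counts. The list of methyl-CpG readers and recruiters, chosen by family and not by shown binding of each, included 8 tested genes. Of these 0 passed in either direction. The median difference was -0.11, against -0.02 over all tested genes. That list's median was 0.16 with each array centred on its median, 0.14 adjusted for the Gapdh ratio, -0.23 without transgenic replicate 3 and 0.0028 without replicate 2. The 3 with the smallest p were Zbtb33 (Kaiso, a zinc finger reader) at -0.75 ± 0.35, Mbd6 at -0.44 ± 0.34 and Mbd3, a subunit of the NuRD repressor complex, at 0.27 ± 0.24 (SE, n = 3 per group). Their limma adjusted p ran from 0.443 to 0.645. Adjusted for the Gapdh ratio Mbd6 was at 0.05 and Mbd3 at 0.01, and centred on the median Mbd6 was at -0.17 and Mbd3 at 0.54.

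Partners of the methyltransferases and heterochromatin proteins included 17 tested genes, with 0 past the threshold and a median of -0.18. It was 0.09 with each array centred on its median, -0.01 adjusted for the Gapdh ratio, -0.23 without transgenic replicate 3 and -0.05 without replicate 2. Hdac2, a histone deacetylase, was at 12.53, 12.18 and 12.56 (log2 levels) in transgenic cultures and at 12.75, 13.16 and 12.90 in non-transgenic cultures. These did not overlap, and the difference was -0.51 ± 0.18 (limma adjusted p = 0.428), or -0.24 with each array centred on its median. Ehmt1, a histone H3 methyltransferase, differed by -0.37 ± 0.22 and Zfp57, which protects imprinted methylation, by 0.60 ± 0.30 (limma adjusted p = 0.503 and 0.454). Adjusted for the Gapdh ratio these were -0.09 and 0.25, and Ehmt1 was at -0.10 with each array centred on its median. Hells, a remodeller needed for DNA methylation of repeats and named after its values were seen, had the list's largest difference, 1.19 ± 0.82, with log2 levels of 9.33, 10.69 and 7.0 in transgenic and 8.13, 7.52 and 7.80 in non-transgenic cultures. Like Uhrf1, it was high in transgenic replicates 1 and 2 and not in replicate 3.

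Genes of demethylation and base excision repair included 19 tested genes, with 0 past the threshold and a median of -0.03. It was 0.23 with each array centred on its median, 0.19 adjusted for the Gapdh ratio, -0.07 without transgenic replicate 3 and 0.10 without replicate 2. Ogt, the sugar transferase that binds Tet2 and Tet3, was at 12.60, 12.62 and 12.98 (log2 levels) in transgenic cultures and at 13.05, 13.41 and 13.30 in non-transgenic cultures. Its groups did not overlap, and the difference was -0.52 ± 0.17 (limma adjusted p = 0.428), or -0.25 with each array centred on its median. Ung, which removes uracil from DNA, differed by 0.97 ± 0.49 with log2 levels of 10.52, 11.02 and 8.98 in transgenic cultures, and was at -0.15 adjusted for the Gapdh ratio. Apobec3, a cytosine deaminase, differed by 0.48 ± 0.25 (limma adjusted p = 0.458 for Ung and 0.471 for Apobec3). Apobec3 was at 0.94 adjusted for the Gapdh ratio.

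The methyl donor cycle, which makes S-adenosylmethionine, included 11 tested genes, with 0 past the threshold and a median of 0.18. It was 0.45 with each array centred on its median, 0.36 with array weights, 0.31 without transgenic replicate 3 and 0.09 without replicate 2. Mthfd1 and Shmt2, enzymes of folate metabolism, differed by 0.50 ± 0.18 and 0.76 ± 0.30, and Ahcyl1 by -0.24 ± 0.09, with no overlap in each (limma adjusted p = 0.428). With each array centred on its median Mthfd1 was at 0.77 and Ahcyl1 at 0.02. S phase genes, of which Tyms is also on the methyl donor list, included 27 tested genes, with 0 past the threshold. All 27 had a positive difference, as had 5320 of all 11208 tested genes. In 6 of the 27 the groups did not overlap with transgenic higher, against 9.39% of all tested genes. The median of the S phase genes was 0.82, which was 1.22 without transgenic replicate 3 and 0.52 without replicate 2. Adjusted for the Gapdh ratio it was 0.09, and for that of beta-actin 0.49. The smallest p belonged to Mcm2, at 1.40 ± 0.33, Rrm1, at 1.02 ± 0.31, and Mcm5, at 2.04 ± 0.65 (limma adjusted p = 0.428 each).

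**Figure D4:**
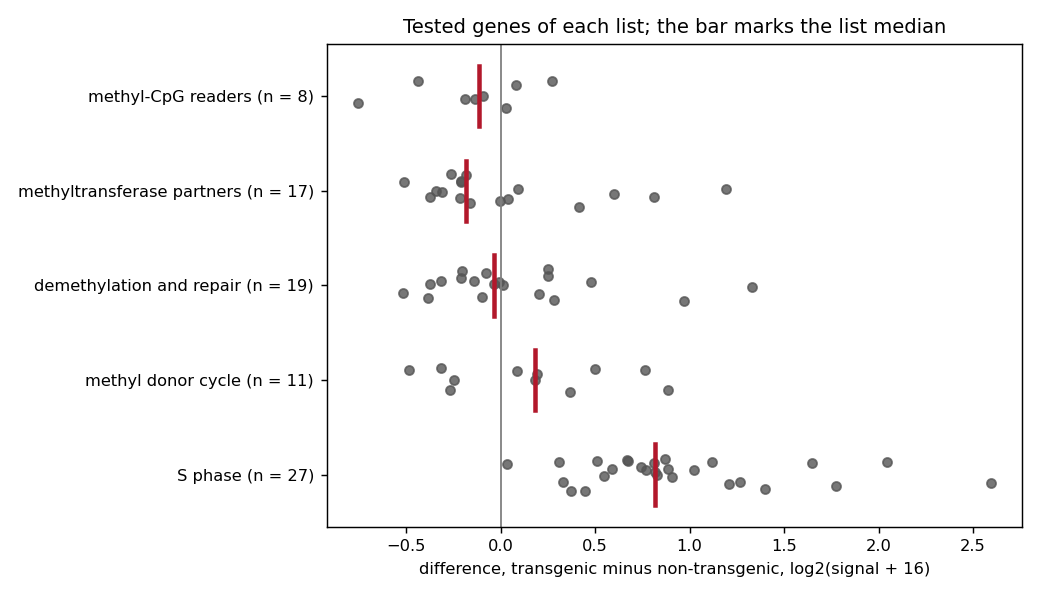
Differences between transgenic and non-transgenic cultures in log2(signal + 16) for each tested gene of the listed groups, with a bar at the list median. The medians are -0.11, -0.18, -0.03 and 0.18 for the methylation lists and 0.82 for S phase genes.

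Germline genes whose promoters are methylated in body cells, such as Dazl and Ddx4, were used to see whether any was detected at these levels. Of 18 on the array, 1 passed the filter on its mean, Sycp3, a protein of the meiotic chromosome axis, at -0.54 ± 0.32 (SE, n = 3 per group, limma adjusted p = 0.510). The number above the filter on single arrays was 2, 2 and 1 in transgenic and 1, 2 and 3 in non-transgenic cultures. The arrays measured RNA, and methylation itself was not measured.

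The genes whose levels ran most like those of Tet2 and Uhrf1 over the 6 arrays were found by Pearson correlation among 11201 other tested genes, as a description over arrays that share 2 groups and 1 array that stood apart. For Tet2 they were Tlk1, a kinase of chromatin assembly (r = 0.996), Heg1, a receptor of endothelial junctions (r = 0.995), the tight junction protein Tjp1 (r = 0.991), Plekha8 (r = 0.988) and the long noncoding RNA Mir99ahg (r = 0.988). Heg1 had log2 levels of 10.09, 10.22 and 10.79 in transgenic and 11.24, 11.50 and 11.51 in non-transgenic cultures. All 5 had lower levels in each transgenic culture than in any non-transgenic one, as had 6.72% of all tested genes. They were picked for running like Tet2, whose own groups did not overlap, so nothing is read from this count. For Uhrf1 they were Birc5, the mitotic protein survivin (r = 0.999), Crct1 (r = 0.999), Hoatz (r = 0.998), the mitotic kinase Aurkb (r = 0.998) and the nucleoside kinase Uck2 (r = 0.998). Birc5 had log2 levels of 13.14, 13.94 and 9.60 in transgenic and 11.07, 8.99 and 9.26 in non-transgenic cultures, in the same order of cultures as Uhrf1. A correlation over 0.95 was found with 76 genes for Tet2 and with 371 for Uhrf1.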

How the data were processed

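RNA of 6 cultures was measured, about 50 ng of total RNA per array after a two-step amplification, per the labels' protocols. The values the authors deposited are linear intensities, 1 for each probe set on each array, from MAS5 (version not given) according to the submitters' processing notes. Their trimmed mean was 1500 on each array, so they were not rescaled, and at most 0.142% of values were identical between any pair of arrays. Gene names came from the array annotation, where 34945 of 45101 probe sets had 1 gene, 932 several and 9160 none listed, and 34741 symbols were updated by gene identifier with RefSeq's table (GRCm38.p6).

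Values were taken as log2(intensity + 16). For each gene the brightest probe set was used, and the 11208 genes with a mean at or above the all-probe-set median (log2 7.717) were tested two-sided with limma 3.58.1 in R 4.3.3 (lmFit, eBayes with a trend) and Benjamini-Hochberg adjustment. Errors of single probe sets come from the same fit over every probe set without a filter. The script was tested on simulated data. The genes and lists were chosen with earlier results of these data known. From each list outside the marker lists the 3 tested genes with the smallest p were named. Alternatives are given in the closing section.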

Additional observations from a re-analysis of the deposited data

How the results depend on the processing

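limma called 0 genes under every alternative run except 2, which were estimated array weights (5504 genes, 2551 higher and 2953 lower) and leaving out transgenic replicate 3 (1649 genes). The alternatives with 0 calls had 426 to 2825 genes at an unadjusted p under 0.05. Over the arrays left out in turn the count ran from 0 to 1649. Among the 7 genes above the filter, groups did not overlap with transgenic lower in 2 (6.72% of all tested genes). This was 1 with the filter at the 75th percentile, which removed Tet3 (6.44% of all genes), and 1 with median centring (0.96%). It was 4 with probe sets averaged per gene (10.6%) and 2 to 4 over the arrays left out (8.48% to 27.4%). With transgenic higher the count was 0 (9.39%), 1 with median centring (30.6%) and 0 to 2 over the arrays left out (10.9% to 22.8%). It was 2 without transgenic replicate 3 (22.8%) and 2 without non-transgenic replicate 1 (18.1%). Nothing is read from these counts. Median centring moved the median difference of all tested genes to 0.25, against -0.02 as deposited, and the Gapdh covariate moved it to 0.12. Over all alternatives that gave a value, the difference of Tet2 ran from -1.51 to -0.87, of Tet3 from -1.14 to -0.37, of Dnmt1 from 0.17 to 0.81, of Uhrf1 from 0.75 to 3.30, of Dnmt3a from -1.38 to -0.02, of Dnmt3b from -0.64 to 0.23 and of Mbd2 from -0.13 to 0.21. The sign of Dnmt3b differed under 1 alternative and that of Mbd2 under 4. The cause was not tested. Same-numbered cultures had correlations of 0.04, -0.28 and -0.03 between their deviations from the group means. Those of differently numbered cultures ran from -0.16 to 0.31. Deviations from means of 3 arrays constrain one another, so these values cannot show whether the numbers pair the cultures. With the replicate block limma called 0 genes (1117 at an unadjusted p under 0.05). Signals below the level filter limit what can be said of Tet1.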
